A study of Rattus norvegicus with 30 samples.

Results

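The genes described here drive or carry out cell division: cyclins, their kinases and inhibitors, the machinery of DNA replication, and the kinases, motors and ubiquitin enzymes of mitosis. They were chosen by name, as 46 gene symbols, and every probe set whose array annotation gave 1 such symbol was taken, whatever its signal. This gave 62 of 31042 probe sets and 42 of the 46 genes, out of 14217 genes that the arrays name in this way. Cdc6, Rrm2, Nek2 and Tpx2 had no probe set of their own symbol. Of the 62 probe sets 61 passed the filter on low signals, the exception being 1 of Cdc45, and 29 genes had 1 probe set while 13 had more. Where a gene had several, the brightest on average over the 30 arrays stands for it. Signals of different genes are not set against each other, since probe sets differ in how they bind.

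The data are from whole testes of male Fischer rats at postnatal day 28, on 1-colour Affymetrix Rat230_2 arrays of biotin-labelled RNA. Each treated rat had been gavaged once with mono-(2-ethylhexyl) phthalate (MEHP), a metabolite of the plasticizer di-(2-ethylhexyl) phthalate, at 1 g/kg in corn oil, and each control rat with corn oil only. Testes were taken 1, 2, 3, 6 or 12 h later from 3 treated and 3 control rats per time, which makes 10 groups and 30 arrays, 1 per rat. The gavage volume differed between rats, from 0.178 to 0.305 ml, being 0.265 to 0.305 ml at 6 h. At 12 h it was 0.21 ml for MEHP rat 57, 0.265 ml for rat 58, 0.24 ml for rat 59 and 0.235 to 0.245 ml for the controls. No group was left ungavaged, so that corn oil is common to all of them, and different rats were used at each time.

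A cell enters division when D-type cyclins with Cdk4, and then E-type cyclins with Cdk2, release E2F factors that switch on replication genes. The minichromosome maintenance (MCM) helicase opens DNA in S phase, Cdk1 with B-type cyclins starts mitosis, and the spindle checkpoint holds anaphase until every chromosome is attached. In a testis of this age spermatogonia divide by mitosis, spermatocytes pass through meiosis, and Sertoli cells have largely stopped dividing and hold the inhibitor Cdkn1b. Many genes of this kind are also used in meiosis, so their messages do not mark mitosis alone.

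Of the 46 genes, 36 had a RefSeq promoter (250 bases before to 50 after the start of the gene, build GRCr8). Promoters of 3 genes of late division (Prc1, Cdc20 and Cdk1) and 2 of replication (Mcm5 and Mcm6) are shown because these genes varied in opposite directions between rats, as described further on, and that of Cdkn1b because this gene fell at 12 h. The 120 bases just before the start are printed on the gene's own strand, with motifs in capitals. TTTGAA is the CHR element and CCAAT the box bound by NF-Y, both known from genes of G2 and mitosis. TTGGCGC and TTCCCGC are cores of E2F sites, known from genes of S phase. All 4 were searched on both strands. On the reverse strand the CHR element reads TTCAAA and the CCAAT box reads ATTGG, while the first E2F core reads GCGCCAA and the second reads GCGGGAA. A reversed CCAAT box can share letters with TTGGCGC.
Prc1 (chr1:143659361-143659480, plus strand): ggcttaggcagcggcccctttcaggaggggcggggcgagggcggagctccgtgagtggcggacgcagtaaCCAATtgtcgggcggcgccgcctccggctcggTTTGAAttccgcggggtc
Cdc20 (chr5:137255800-137255919, minus strand): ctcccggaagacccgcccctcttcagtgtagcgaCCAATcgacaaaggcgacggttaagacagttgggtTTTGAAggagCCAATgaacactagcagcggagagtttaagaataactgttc
Cdk1 (chr20:19265173-19265292, plus strand): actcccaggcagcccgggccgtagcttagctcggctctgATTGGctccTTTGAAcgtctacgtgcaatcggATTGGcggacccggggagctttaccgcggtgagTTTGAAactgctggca
Mcm5 (chr19:13488693-13488812, plus strand): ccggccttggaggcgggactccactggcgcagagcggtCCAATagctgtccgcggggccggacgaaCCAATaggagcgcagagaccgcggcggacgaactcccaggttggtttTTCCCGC
Mcm6 (chr13:42404353-42404472, minus strand): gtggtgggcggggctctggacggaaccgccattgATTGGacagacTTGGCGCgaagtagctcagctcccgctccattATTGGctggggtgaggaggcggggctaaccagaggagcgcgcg
Cdkn1b (chr4:169491384-169491503, plus strand): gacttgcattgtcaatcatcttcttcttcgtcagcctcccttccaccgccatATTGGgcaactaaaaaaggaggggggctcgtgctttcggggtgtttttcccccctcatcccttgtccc

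Prc1 holds a CCAAT box and a CHR element in this stretch, and Cdc20 a CHR element with a CCAAT box on either side of it. Cdk1 holds 2 CHR elements and 2 reversed CCAAT boxes. Mcm5 and Mcm6 hold an E2F core and 2 CCAAT boxes each and no CHR element, and Cdkn1b holds a reversed CCAAT box alone. Over the whole RefSeq entries, a CHR element stood in 14 of the 36 promoters (38.9%, beside 18.3% of all 33469) and a CCAAT box in 27 (75%, beside 37.5%). The E2F core TTGGCGC stood in 6 (16.7%, beside 2.26%) and TTCCCGC in 7 (19.4%, beside 4.21%). Among the 21851 promoters of protein-coding genes the shares were 17.1% (CHR), 38% (CCAAT), 2.93% (TTGGCGC) and 5.31% (TTCCCGC). The CHR element was in 5 of 8 promoters of spindle and cytokinesis genes (Prc1, Mki67, Kif23, Birc5 and Cenpf) and in 4 of 7 of mitotic kinases and checkpoint genes (Plk1, Bub1b, Mad2l1 and Ttk). It was in 2 of 10 of replication genes (Mcm2 and Top2a) and in 0 of 4 of G1 cyclins and kinases. These matches describe letters, not bound sites.

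The arrays carried signal of spermatocyte and spermatid markers and were not all alike. The summed signal of 8 spermatocyte markers was 56246 to 75763 on the corn oil arrays, and that of 8 spermatid markers 1331 to 7039. These 8 spermatid markers are those of 13 on the arrays that passed the filter on low signals. The median signal of an array ran from 117.2 to 165.4, and 7 arrays had the lowest medians, 117.2 to 125.4, with the other 23 at 129.3 and above. Those 7 were of MEHP rats 39 (1 h), 33 (6 h) and 58 (12 h) and of corn oil rats 52 and 53 (3 h) and 35 and 36 (6 h). MEHP rat 57 at 12 h had the lowest signal of the 6 rats of its time for 21 of the 42 genes, and for 37.8% of all genes tested. MEHP rat 58 had the highest for 12 of the 42 (28.6%), and for 24.3% of all genes tested. Of the 42 genes, 41 had signals at or above the 40th percentile of the array (66.7 to 93.6, depending on the array) on all 30 arrays, and Tyms was the other.

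Changes are differences in log2(signal + 16) between the 3 MEHP and the 3 corn oil rats of a time, positive where MEHP was higher, given ± their standard error. Single signals are linear intensities as deposited. A gene rose or fell only where limma's p, adjusted by Benjamini-Hochberg over 21190 probe sets, was under 0.05. In RNA of a whole testis, fewer cells of a type and less RNA per cell cannot be told apart.

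Of the 42 cell cycle genes 0 were called by limma from 1 to 6 h, and at 12 h Cdkn1b and Cdk4 fell. In the order of the 5 times, the median change of the 42 genes was 0.03, -0.03, -0.06, -0.05 and -0.12. Over the 11274 genes tested it was -0.01, -0.01, -0.03, 0.00 and -0.04 in that order. Below 0 were 18, 24, 30, 26 and 35 of the 42 genes in turn, where 51.4, 51.2, 56.7, 50.5 and 56.1% of all genes were. The median of 2 h was 0.02 without corn oil rat 7 and below 0 under the other 15 settings tried, and that of 1 h was -0.01 with the gavage volume in the model. The 95% interval of the change lay within 1.5-fold of no change for 30, 30, 36, 31 and 30 genes in turn, and within 2-fold for 41, 39, 41, 41 and 38. The heat map shows the 42 genes by role.

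**Figure D1:**
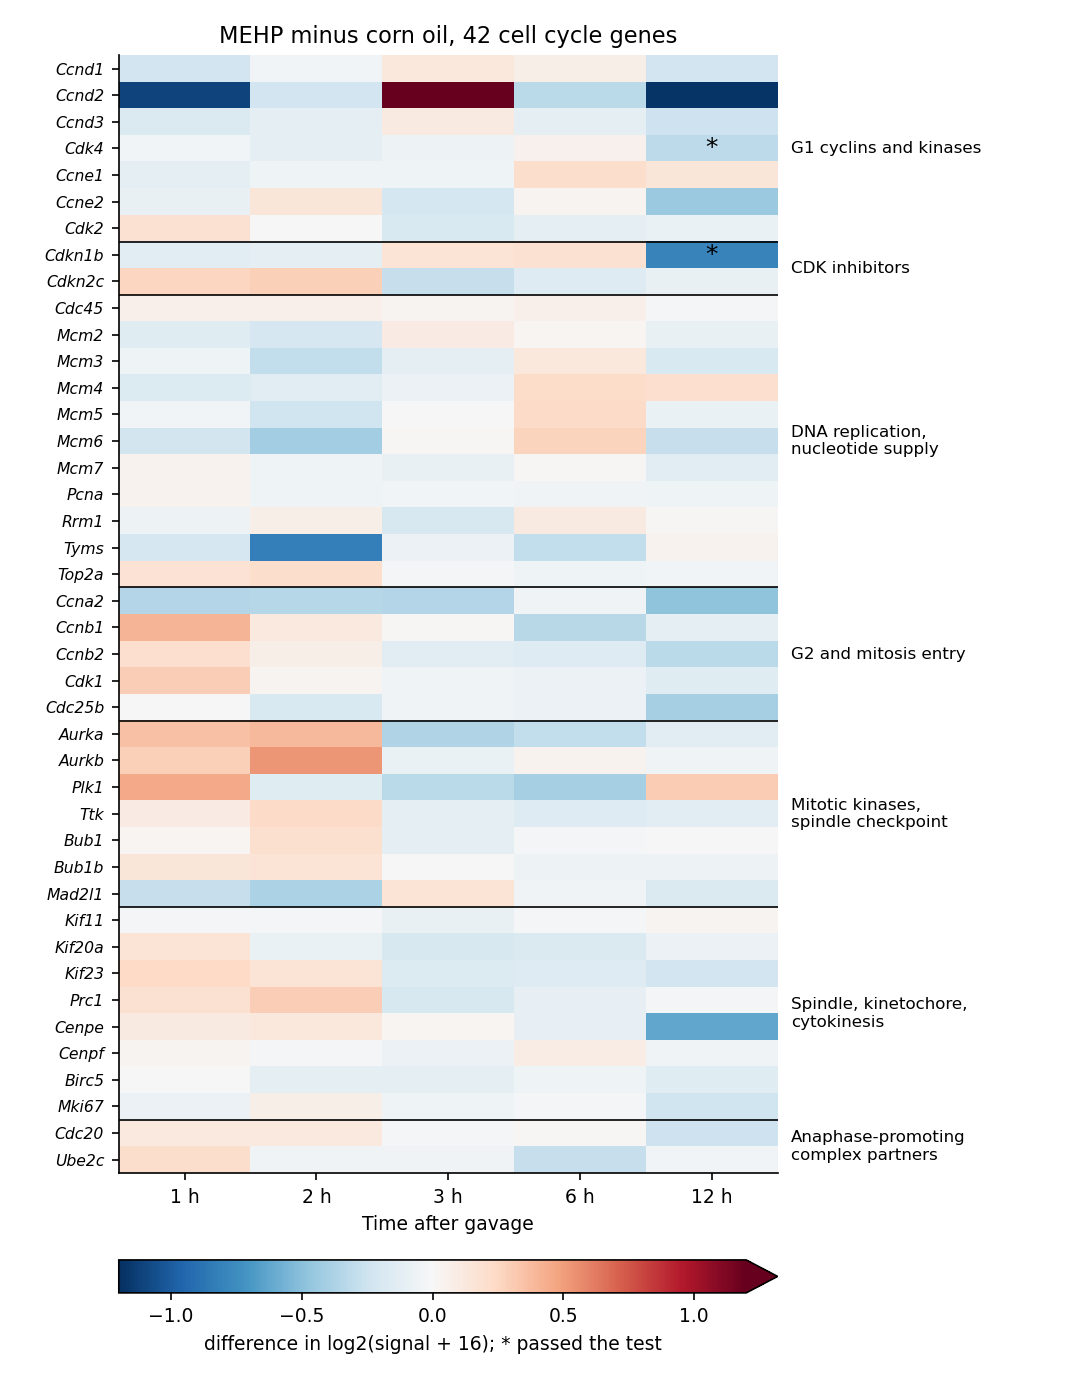
Change of the 42 cell cycle genes (rows, grouped by role) at 5 times after gavage (columns), as MEHP minus corn oil in log2(signal + 16), 3 rats per group; blue is lower and red higher after MEHP, and values past 1.2 share the darkest red. Asterisks mark the 2 changes that passed limma's test, Cdkn1b and Cdk4 at 12 h, and the row of darkest cells is Ccnd2.

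Cdkn1b encodes p27, an inhibitor that holds cyclin-dependent kinases in check. At 12 h its signals were 1604, 1367.1 and 1633.8 in the corn oil rats and 719.8, 1051.3 and 868.6 in the MEHP rats. All 3 treated rats lay below all 3 controls. Cdkn1b fell by 0.80 ± 0.16, to 57.3% of its control level (adjusted p = 0.00115). At 12 h 4.3% of all genes tested were called lower and 6.09% higher (10.4% either way), and of the 42 cell cycle genes 2 were called lower and 0 higher by limma. At an unadjusted p under 0.05 there were 8 of the 42, where 22.2% of all genes were.

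From 1 to 6 h the changes of Cdkn1b were -0.14, -0.12, 0.17 and 0.18 in turn, each ± 0.16, and did not pass the threshold. At 6 h its signals were 1419.1, 1082.8 and 1253.9 after corn oil and 1505.8, 1520.8 and 1230.0 after MEHP, and the groups overlapped. The 12 h change differed from the 6 h change by -0.98 ± 0.22 (adjusted p = 0.0213), the only such difference called among the 42 genes, where 1.98% of all genes tested had one. Over the 5 times together its change depended on time with an adjusted p of 0.0432, again alone among the 42, beside 3.45% of all genes. That time dependence was not called without the filter on low signals (adjusted p = 0.0566), with quantile normalization (0.0611), with the bacterial spike level in the model (0.0514) or without the 7 arrays of lowest median (0.0876). The other probe set of Cdkn1b had 72.8, 43.8 and 52.9 after corn oil and 73.4, 11.1 and 40.8 after MEHP at 12 h. These signals lie around or below the 40th percentile, and the change there was -0.47 ± 0.51 (adjusted p = 0.694).

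Cdk4, the kinase that D-type cyclins activate in G1, had 1870.4, 1825.7 and 1898.4 after corn oil at 12 h and 1290.1, 1714.5 and 1503.8 after MEHP. The groups did not overlap, and the control signals were close together. Cdk4 fell by 0.32 ± 0.10, to 80.2% (adjusted p = 0.0386). Its call was lost without any 1 of corn oil rats 60, 61 or 62 or MEHP rats 57 or 59 (adjusted p from 0.0683 to 0.291), and held without MEHP rat 58 (0.00578). Its changes at the other times lay between -0.11 and 0.05, and the difference between 12 h and 6 h, -0.37 ± 0.14, was not called (adjusted p = 0.246). The plot of single rats shows both genes beside Cdkn1a, which is described below.

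**Figure D2:**
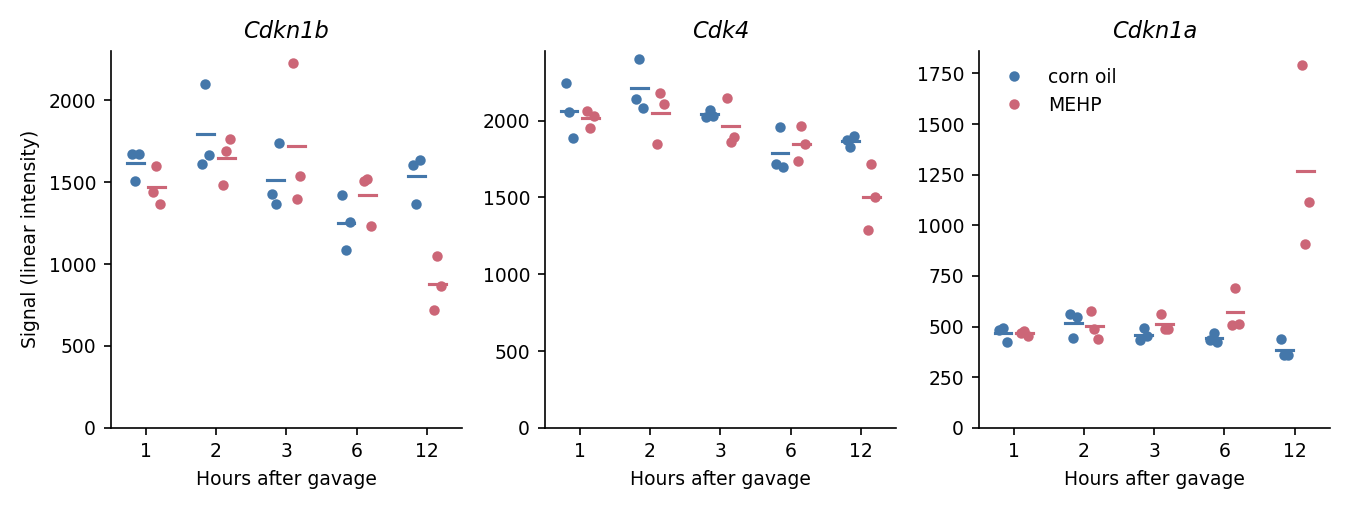
Signal (linear intensity, from 0) of Cdkn1b, Cdk4 and Cdkn1a in each of 3 rats per group (points) with the group mean (bar), against hours after gavage, for corn oil (blue) and MEHP (red). At 12 h the 3 MEHP rats lie below the 3 corn oil rats for Cdkn1b and Cdk4 and above them for Cdkn1a.

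The other G1 genes did not pass at 12 h. Ccne2, an E-type cyclin that works with Cdk2, had 3474.7, 3500.8 and 4242.3 after corn oil and 1739.8, 3369.7 and 3451.6 after MEHP. Its groups did not overlap, but the low value was that of rat 57 alone, and its change was -0.45 ± 0.17 (adjusted p = 0.116). Ccnd3, a D-type cyclin, had 438.7, 400.7 and 435.2 beside 383.1, 384.8 and 299.8, also without overlap (-0.25 ± 0.12, adjusted p = 0.237). Ccne1 (0.15), Cdk2 (-0.08), Ccnd1 (-0.23) and Ccnd2 (-1.17) had overlapping groups. Cdkn2c, an inhibitor of Cdk4 and the other inhibitor measured here, had a change of -0.09 ± 0.21. Its other probe set, of low signal, had 79.2, 57.9 and 49.5 after corn oil and 99.1, 95.2 and 136.9 after MEHP, without overlap and in the other direction (0.70 ± 0.30, adjusted p = 0.185). Further probe sets gave 0.06 for Ccne2 and 0.05 for Ccnd1, also against the direction above. Without overlap at 12 h were 7 of the 42 genes, all lower, where 11.5% of all genes lay lower and 11.7% higher in that way. The rest of the 7 were Ccna2, Mad2l1 and Cdc20.

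The 12 h changes of the 11 replication genes, each from its brightest probe set, lay between -0.27 and 0.20, with 8 below 0. Their median was -0.06, with 0 called by limma (0 at an unadjusted p under 0.05). Their intervals were within 1.5-fold for 10 of the 11. Cdc45 had -0.02 from its brightest probe set, but its dimmer tested probe sets were lower. These gave -0.39 ± 0.14 (adjusted p = 0.0894) and -0.31 ± 0.13 (adjusted p = 0.171). Both were under 0.05 before adjustment, were not called and had overlapping groups. Pcna, the sliding clamp of DNA polymerase, had 10401.7, 10759.8 and 11160.2 after corn oil and 10169.7, 10585.7 and 10349.1 after MEHP. This is a change of -0.06 ± 0.06 with an interval from -0.17 to 0.06. Top2a, the topoisomerase that untangles replicated DNA, had -0.03 ± 0.10 (0.18 from a further probe set), and the subunits of the MCM helicase ranged from -0.27 (Mcm6) to 0.20 (Mcm4).

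All 5 genes of entry into mitosis had changes below 0 at 12 h (median -0.32), with 0 called. Cdc25b, the phosphatase that activates Cdk1, had the smallest p of the 42 after Cdkn1b and Cdk4. It had 349.8, 313.6 and 384.6 after corn oil and 255.4, 314.0 and 220.0 after MEHP, with rat 58 inside the control range (-0.40 ± 0.15, adjusted p = 0.109). Ccna2, the cyclin of S phase and G2, had 739.2, 648.6 and 878.5 beside 437.9, 557.7 and 610.1 (-0.49 ± 0.25, adjusted p = 0.282). Ccnb2, a B-type cyclin, had 3499.8, 3502.1 and 3504.5 beside 1650.5, 3824.6 and 3454.3. Its control signals were almost equal and rat 57 alone was far below them (-0.32 ± 0.18, adjusted p = 0.349). Cdk1 and Ccnb1 had -0.15 and -0.10, and the other probe set of Ccnb1 had 0.05.

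Rat 57 stood low in the same way for other mitotic genes. Cenpe, a motor at the kinetochore, had 410.6, 467.8 and 475.2 after corn oil and 119.9 in rat 57, but 450.3 and 419.3 in the other treated rats (-0.63 ± 0.26, adjusted p = 0.167). Aurkb, the kinase that corrects faulty attachments, had 348.8 in rat 57 and 756.7 and 809.3 in the others, on either side of the controls (575.7 to 640.4). The 7 mitotic kinases and checkpoint genes had changes from -0.17 (Mad2l1) to 0.31 (Plk1), and the 8 spindle and cytokinesis genes from -0.63 (Cenpe) to 0.03 (Kif11), with 0 called in either group. The other probe set of Kif11 had -0.004. Mki67, a coat of mitotic chromosomes used as a proliferation marker, had 3096.7, 3164.8 and 3506.7 beside 2423.3, 2737.5 and 3162.9 (-0.24 ± 0.11, adjusted p = 0.218). Cdc20, which activates the anaphase-promoting complex, had 3469.8, 3744.4 and 3444.6 beside 2536.1, 3416.3 and 3056.2, without overlap (-0.25 ± 0.11, adjusted p = 0.176). Of its dimmer probe sets 2 had 0.29 and 0.24, and the others had -0.07 ± 0.15 and -0.47 ± 0.33, all with overlapping groups. Ube2c, the ubiquitin enzyme of that complex, had -0.03 ± 0.17. The plot of 12 h intervals gives all 42 genes.

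**Figure D3:**
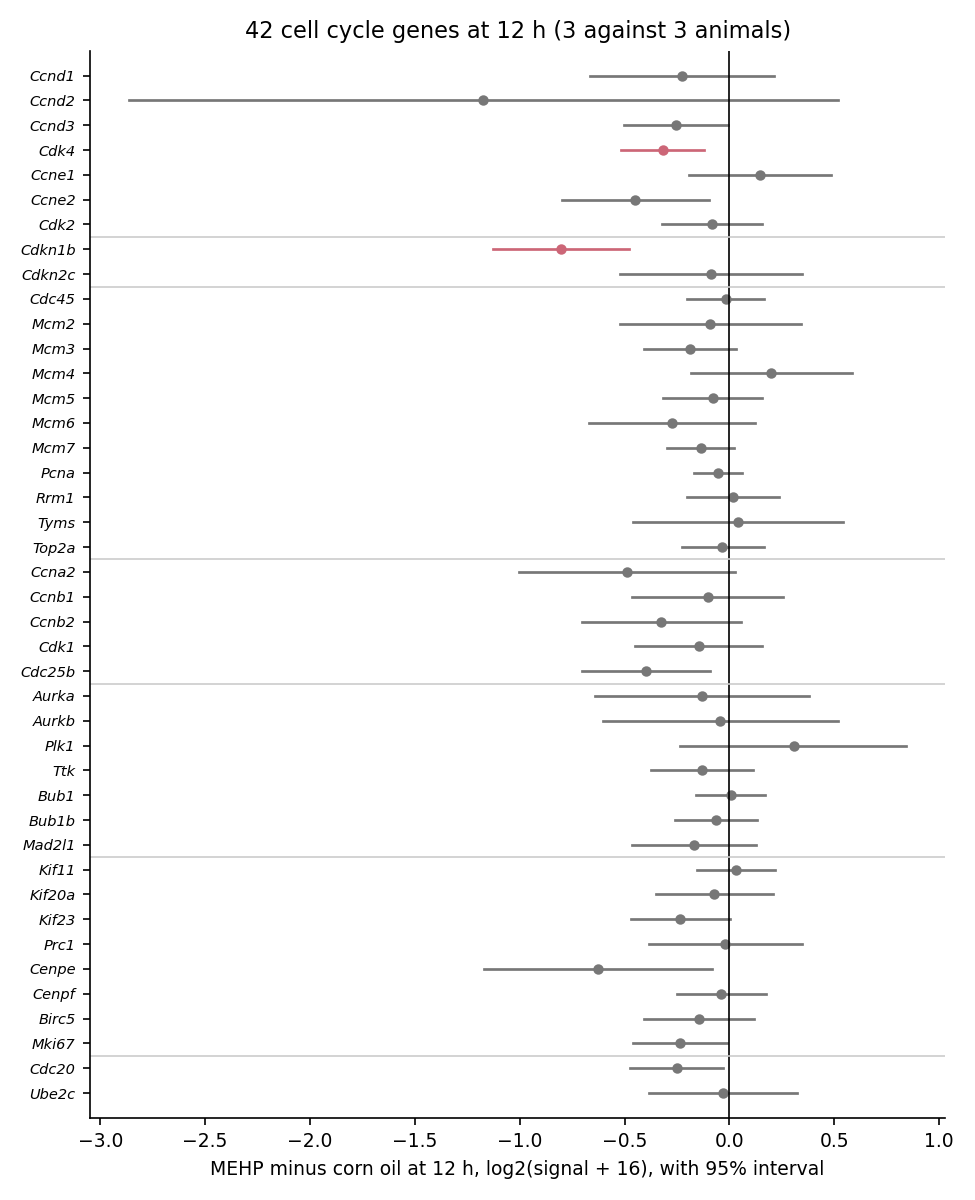
Change at 12 h of the 42 cell cycle genes (rows, in the order of the heat map, grey lines between roles), as MEHP minus corn oil in log2(signal + 16), with 95% intervals from limma. Cdkn1b and Cdk4, in red, passed the test; 35 of the 42 points lie below 0, and the widest interval, that of Ccnd2, runs from -2.86 to 0.52.

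Which genes passed at 12 h depended on the rats included. Without rat 58, 7 of the 42 were called, all lower: Cdkn1b, Cdk4, Cenpe (-0.94, adjusted p = 0.0182), Ccne2 (-0.60, 0.0292), Cdc25b (-0.53, 0.0297), Cdc20 (-0.35, 0.0448) and Ccnb2 (-0.55, 0.0475). Without rat 57 Cdkn1b alone was called (-0.67, 0.0169) and the median over the 42 was -0.04. The median was -0.20 without rat 58. The share of all genes called without single rats was not computed. Whether these counts are particular to cell cycle genes thus cannot be told. With the gavage volume in the model, an alternative chosen after seeing the data, Cdkn1b (-0.82 ± 0.15, adjusted p = 0.000398) and Cdk4 (-0.32 ± 0.09, adjusted p = 0.0234) were called and no other of the 42.

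Markers of other cells changed at 12 h as well, and their part in the falls of Cdkn1b and Cdk4 was not tested. Of the Leydig cell markers 6 of 8 fell and 1 rose, with summed signals of 14184 to 17975 after corn oil and 3627 to 9561 after MEHP. Peritubular myoid markers rose for 5 of 8 (sums 4921 to 5601 and 6850 to 10030). Macrophage and monocyte markers rose for 3 of 14 (2531 to 2635 and 4034 to 11985). Of 7 neutrophil markers on the arrays, S100a8, S100a9 and Lcn2 passed the filter on low signals, and did so through the 3 MEHP arrays of 12 h. Their sums, given as a description, were 18 to 41 after corn oil and 481 to 7538 after MEHP. Sertoli cell markers, the cells best known for Cdkn1b, had 2 of 15 higher and 2 lower (65327 to 71701 and 71143 to 78733). Of germ cell markers 0 were called by limma in each list. The 11 of spermatogonia had a median of -0.28 (3 at an unadjusted p under 0.05) and sums of 8301 to 8828 and 6603 to 7012. Those of spermatocytes (69678 to 75763 and 66720 to 75336) and spermatids (3488 to 4520 and 2383 to 5445) had overlapping sums and 0 at that level. Of 9 endothelial markers 1 rose (sums 983 to 1156 and 1185 to 1540), and of 4 lymphocyte markers 0 were called (0 at an unadjusted p under 0.05).

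Beyond the 42, 135 other cell cycle genes were tested, of which 2 rose and 3 fell at 12 h and 0 were called by limma at the other times. They came from a list of 153 further genes of the pathway, 137 of them on the arrays. Cdkn1a encodes p21, the inhibitor induced by p53 and a relative of Cdkn1b. It had 439.7, 360.6 and 358.7 after corn oil and 1790.1, 905.6 and 1114.4 after MEHP. It rose 3.08-fold (1.62 ± 0.17, adjusted p = 5.92e-07), in the opposite direction to Cdkn1b. At 6 h it had 432.2, 469.5 and 425.3 beside 508.0, 690.5 and 512.6, without overlap but short of the threshold (0.34 ± 0.17, adjusted p = 0.996). The difference between its 12 h and 6 h changes was 1.28 ± 0.24 (adjusted p = 0.00586). Its changes at 1, 2 and 3 h were 0.01, -0.04 and 0.15.

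E2f6, an E2F factor that represses transcription, had 285.7, 259.6 and 235.6 at 12 h after corn oil and 608.3, 323.8 and 425.1 after MEHP, and rose by 0.72 ± 0.19 (adjusted p = 0.0133). Ccng2, an atypical cyclin found in cells that stop dividing, had 1505.2, 1525.4 and 1479.7 beside 273.1, 990.3 and 1095.2. It fell by 1.15 ± 0.30 (adjusted p = 0.0147), most of all in rat 57. Without rat 57 neither passed (E2f6 0.49, adjusted p = 0.158; Ccng2 -0.52, adjusted p = 0.115). Rfc5, a subunit of the loader of Pcna, fell by 0.53 ± 0.15 (adjusted p = 0.0212) and Tk1, the thymidine kinase of S phase, by 0.50 ± 0.16 (adjusted p = 0.0429). E2f6 lost its call without rat 62 too (adjusted p = 0.0728). Rfc5 lost it without rats 60, 62 or 59 (0.0634, 0.112 and 0.102), and Tk1 without rats 60, 62, 58 or 59 (0.0709, 0.238, 0.0501 and 0.197). Over the 135 the median was -0.11 and 105 lay below 0, beside -0.12 and 35 for the 42. The 5 called at 12 h compare with 10.4% of all genes. At an unadjusted p under 0.05 there were 6, 18, 8, 1 and 26 of the 135 at the 5 times in turn, where 2.3, 14.2, 8.06, 5.51 and 22.2% of all genes were.

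At 1 h 0 of the 42 genes were called by limma, as were 0% of all genes. An unadjusted p under 0.05 was found for 2, where 2.3% of all genes had one. Ccnb1, the main B-type cyclin, had 1451.1, 1601.1 and 1687.0 after corn oil and 1707.5, 2224.6 and 2430.0 after MEHP, just without overlap (0.41 ± 0.17, adjusted p = 0.941). Its other probe set gave -0.06. Kif23, a motor of cytokinesis, had 0.24 ± 0.11 and -0.05 from its other probe set, and Cdk1 had 0.29 ± 0.15 (both with an adjusted p of 0.941). At this time 9 of the 42 genes were higher and 5 lower without overlap, where 11.8% and 9.76% of all genes were. The 9 were Ccnb1, Cdk1, Cdk2, Cdkn2c, Aurka, Aurkb, Bub1b, Prc1 and Cdc20. Further probe sets gave 0.30 for Cdk2, without overlap, and with overlap -0.13 for Cdkn2c and -0.10 to 0.19 for Cdc20. Spermatid markers moved with the 9 genes, with 8 of 8 higher, 0 called, and sums of 2841 to 2979 after corn oil and 3524 to 4832 after MEHP. The gavage volume was 0.21 ml for the controls of 1 h and 0.23 to 0.24 ml for the MEHP rats. Every MEHP rat of 1 h thus had more than every control, so that volume and treatment cannot be told apart at this time. The model takes its slope for volume from the spread within the groups of all times. With that volume in the model, Aurka went from 0.35 to -0.06, Cdkn2c from 0.26 to -0.07, Prc1 from 0.18 to -0.09, Aurkb from 0.29 to -0.10 and Cdc20 from 0.12 to -0.01. Ccnb1 went from 0.41 to 0.17, Cdk1 from 0.29 to 0.08, Cdk2 from 0.18 to 0.07 and Bub1b from 0.14 to 0.09. The standard errors of these 9 changes in that model were 0.085 (Cdc20) to 0.188 (Aurkb).

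At 2 h 0 of the 42 were called by limma, where 0.328% of all genes were called lower and 0.204% higher (0.532% either way), and 7 had an unadjusted p under 0.05, where 14.2% of all genes had one. Tyms, which makes thymidylate for DNA, had 166.1, 227.0 and 107.4 after corn oil and 80.9, 88.6 and 82.9 after MEHP. All treated rats lay below all controls, but the change of -0.82 ± 0.24 did not pass (adjusted p = 0.115). It passed when corn oil rat 7 was left out (-1.07, adjusted p = 0.0385) or when the model held the median of each array (-0.80, adjusted p = 0.0494). Tyms lay near the 40th percentile of the arrays, and in the corn oil rats of the other times it had 50.1 to 135.0. Mcm3 had 851.8, 906.3 and 701.4 beside 607.4, 673.5 and 709.1 (-0.29 ± 0.11, adjusted p = 0.199). Mad2l1, which holds Cdc20 inactive at the checkpoint, had 554.6, 706.0 and 614.0 beside 436.4, 476.0 and 509.4 (-0.38 ± 0.14, adjusted p = 0.216), and its other probe sets gave 0.13 and -0.07. Of the replication genes 8 of 11 lay below 0 (median -0.13), among them Mcm5 (-0.24) and Mcm6 (-0.42), while Top2a was at 0.21. Without overlap were 5 genes higher and 4 lower, where 7.01% and 11.6% of all genes were. Markers of other cells were lower too, and their part in these values was not tested. Macrophage and monocyte markers were below 0 for 14 of 14, 1 of them called (sums 2729 to 3460 after corn oil and 2240 to 2300 after MEHP). Spermatogonia markers were below 0 for 9 of 11, 1 of them called (7154 to 10053 and 7377 to 8394). Sertoli cell markers were below 0 for 15 of 15, with 0 called by limma and 6 at an unadjusted p under 0.05 (70530 to 99342 and 63001 to 66329).

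At 3 h 0 of the 42 were called by limma, where 0.0798% of all genes were, and at 6 h 0 again, where 0.0266% were called lower and 0.231% higher (0.257% either way). An unadjusted p under 0.05 was found for 1 of the 42 at 3 h (8.06% of all genes) and for 0 at 6 h (5.51%). At 3 h the smallest p values were those of Ccnd2 (1.85 ± 0.82, adjusted p = 0.484), Rrm1, a subunit of ribonucleotide reductase (-0.19 ± 0.11, adjusted p = 0.534), and Cdk2 (-0.19 ± 0.12, adjusted p = 0.577). At 6 h they were those of Mcm5 (0.23 ± 0.11, adjusted p = 0.998), Ccnb1 (-0.33 ± 0.17, adjusted p = 0.999) and Ube2c (-0.28 ± 0.17, adjusted p = 0.999). The other probe set of Ccnb1 gave 0.19 at 6 h. Without overlap were 0 genes higher and 1 lower at 3 h (4.95% and 6.19% of all genes) and 2 higher and 3 lower at 6 h (8.28% and 4.6%). Over the 13 genes with several probe sets, the 19 further ones tested shared the sign of their gene's change for 12, 11, 12, 8 and 11 at the 5 times in turn, and 0 were called by limma.

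Ccnd2, the D-type cyclin found in spermatogonia, had large changes of both signs and none called. Its signal varied within groups by a residual SD of 1.1 in log2, the tenth highest of 11274 genes, beside a median of 0.18 over the 42. At 3 h it had 277.6, 285.4 and 2672.2 after corn oil and 2039.4, 2115.9 and 2536.4 after MEHP. The low signals were those of 2 control rats. At 12 h it had 2682.8, 2029.3 and 2006.3 after corn oil and 2164.3, 248.1 and 1675.4 after MEHP, with the low signal in 1 treated rat. On the 7 arrays of lowest median signal it had 248.1 to 1331.6, and on the other 23 it had 1675.4 to 3685.7, with no overlap. It was the only 1 of the 42 genes so separated, where 0.94% of all genes were lower and 1.42% higher on those arrays. These arrays came from both treatments and from 4 of the 5 times. The array median also fell with the gavage volume and went against the spermatid markers, as described further on. What sets these 7 arrays apart was not tested. The plot of Ccnd2 against the array median shows both sets.

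**Figure D4:**
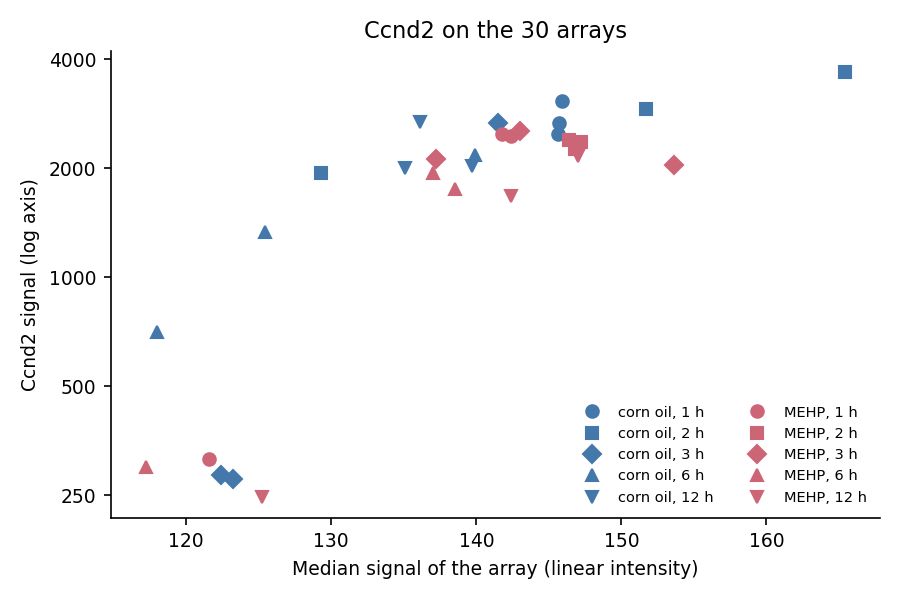
Signal of Ccnd2 (log axis) against the median signal of the array, both as linear intensities, for the 30 arrays by treatment (colour) and time (symbol). The 7 arrays with medians of 117.2 to 125.4 have Ccnd2 signals of 248.1 to 1331.6, and the other 23 have 1675.4 to 3685.7.

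Between rats of a group the 42 genes did not vary as 1 block. As deviations from the group means over 30 arrays, the 861 pairs of genes had a median r of 0.06. The closest pairs were Aurka, the kinase of spindle poles, with Cdkn2c (r = 0.96), Prc1, which bundles the central spindle, with Cdkn2c (0.95), and Aurka with Prc1 (0.95). The most opposed was Aurka with the helicase subunit Mcm2 (-0.84). Within roles of at least 5 genes the median r was -0.09 for G1 cyclins and kinases, 0.06 for replication, -0.10 for entry into mitosis, 0.13 for mitotic kinases and checkpoint, and 0.20 for spindle and cytokinesis. All these values share the arrays and their scaling.

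The opposed genes followed the spermatid markers of the same arrays, in opposite directions. This comparison was chosen after the correlations had been seen, and 42 genes were compared, with p values from 100000 permutations of rats within groups (2-sided) and adjusted over the 42. Aurka rose with the mean of 8 spermatid markers with r = 0.90 (permutation p = 1e-05, the smallest they can give, adjusted p = 0.00021) and rho = 0.84 (permutation p = 1e-05, adjusted p = 0.00021). Kif11, the motor that pushes spindle poles apart, ran against it with r = -0.82 and rho = -0.84 (permutation p = 1e-05 and adjusted p = 0.00021 for each). Mcm6 had r = -0.79 (permutation p = 0.00021, adjusted p = 0.00126) and rho = -0.76 (permutation p = 0.00026, adjusted p = 0.00136). Without the 2 arrays farthest from the median of the markers r was 0.86, -0.83 and -0.81 for Aurka, Kif11 and Mcm6. Over the 15 corn oil arrays it was 0.83, -0.88 and -0.87, and over the 15 MEHP arrays 0.94, -0.82 and -0.76. Without the 7 arrays of lowest median it was 0.90, -0.82 and -0.79.

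An r of 0.7 or more was found for 12 of the 42 genes (28.6%, beside 13.3% of all other genes tested) and of -0.7 or less for 5 (11.9%, beside 7.7%). The 12 were Aurka, Ccnb1, Cdk1, Prc1, Cdkn2c, Aurkb, Ube2c, Ccnb2, Ttk, Cdc20, Plk1 and Mcm7, and the 5 were Kif11, Mcm2, Mcm6, Ccnd1 and Mcm4. Of the printed promoters, those of Prc1, Cdc20 and Cdk1 belong to the 12 and that of Mcm6 to the 5, and Mcm5 lay just outside, at r = -0.66. They were picked for these directions, and whether the motifs sort the genes was not tested. Aurkb and Ube2c of the 12 and Ccnd1 and Mcm4 of the 5 had no RefSeq promoter. Of the 12, Cdk1, Prc1, Ccnb2, Ttk, Cdc20 and Plk1 held a CHR element. Mcm2, among the 5, has 2 CHR elements, while Mcm7 and Cdkn2c, among the 12, have E2F cores, and so has Cdk1. Aurka, the first of the 12, had no match to any of the motifs. Kif11, a mitotic gene, stands with the 5, and Mcm7, a replication gene, with the 12. The marker mean itself went against the median signal of the array (r = -0.71).

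Both also went with the gavage volume that the labels give for each rat, taken as the deviation from its group mean. In a family of 44 relations, with permutations as above, the volume rose with the spermatid marker mean with r = 0.88 (permutation p = 5e-05, adjusted p = 0.00066) and rho = 0.80 (permutation p = 5e-05, adjusted p = 0.000968). Without the 2 rats farthest from the median volume r was 0.84, and it was 0.84 in corn oil and 0.91 in MEHP rats. The array median fell with the volume, with r = -0.69 (permutation p = 0.0024, adjusted p = 0.0066), rho = -0.66 (permutation p = 0.0037, adjusted p = 0.0102) and r = -0.63 without those 2 rats. Aurka followed the volume with r = 0.92 (permutation p = 4e-05, adjusted p = 0.00066), rho = 0.86 (permutation p = 1e-04, adjusted p = 0.000968) and r = 0.89 without them. Mcm6 ran against it with r = -0.75 (permutation p = 0.00043, adjusted p = 0.00225), rho = -0.70 (permutation p = 0.00106, adjusted p = 0.00517) and r = -0.75 without them. Of the 42 genes 23 had an adjusted p under 0.05 for r. The share over all genes was not computed, so whether this count is particular to cell cycle genes cannot be told. Cdkn1b (r = -0.33, permutation p = 0.259, adjusted p = 0.326) and Cdk4 (r = -0.17, permutation p = 0.583, adjusted p = 0.642) did not pass. For Cdkn1b r was -0.61 in corn oil rats, -0.15 in MEHP rats and -0.44 without the 2 farthest rats. For Cdk4 these values were -0.51, 0.03 and -0.33. What sets the volume was not tested. The volume, the spermatid markers and the array median went together, and their parts cannot be told apart here.

 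The spread was wide within groups. Aurka had 1838.1, 1038.7 and 2571.7 in the 2 h corn oil rats, and Mcm6 had 1391.7, 1726.5 and 1097.9 in the same order. The rat low in Aurka was the rat high in Mcm6, and it had the smallest gavage volume of all, 0.178 ml.

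**Figure D5:**
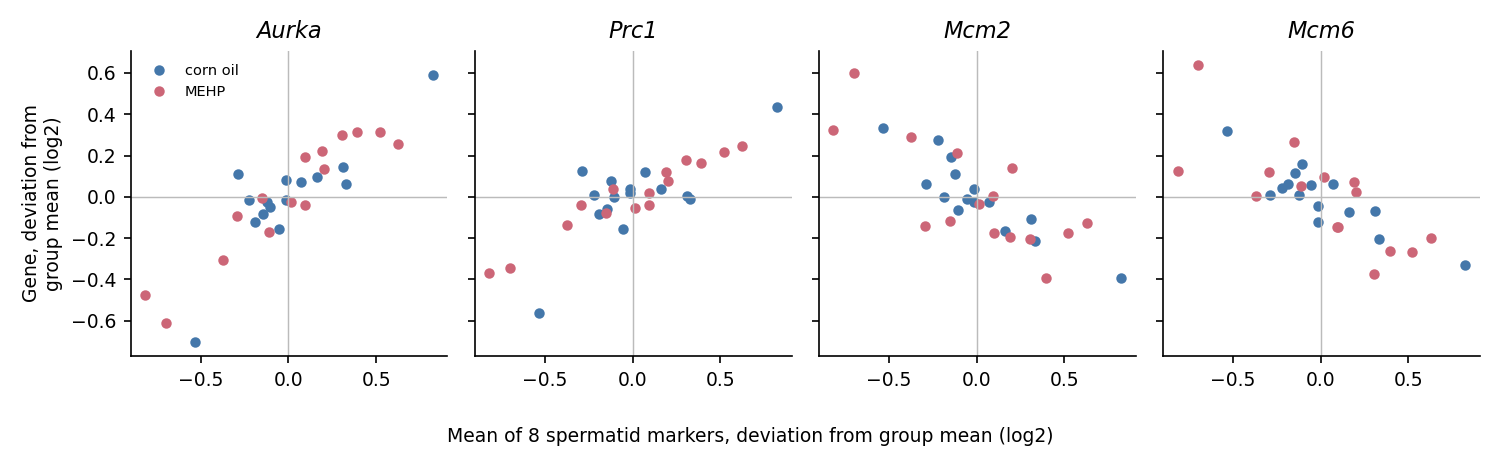
Deviation from the group mean of Aurka, Prc1, Mcm2 and Mcm6 (vertical, log2) against that of the mean of 8 spermatid markers (horizontal, log2), 1 point per array, for 15 corn oil (blue) and 15 MEHP (red) arrays. Aurka and Prc1 rise with the markers (r = 0.90 and 0.84), and Mcm2 and Mcm6 fall (r = -0.81 and -0.79).

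Among the corn oil rats alone, 0 of the 42 genes differed between the 5 times by limma's F test, where 0.0355% of all genes did. An unadjusted p under 0.05 was found for 16 of the 42, and 22.2% of all genes had one. The smallest was that of Ccnb1 (adjusted p = 0.105 by limma). Its corn oil signals were 1451.1 to 1687.0 at 1 h and 2486.0 to 2968.7 at 6 h. Pcna ran from 8363.5 to 11160.2 over the 30 arrays, with a residual SD of 0.05 in log2, the lowest of the 42. With the gavage volume in the model, Aurka was called between the times (adjusted p = 0.023 by limma). Per the labels the rats of 6 and 12 h were dosed earlier in the day than the others and those of 6 h had the largest volumes, so that time after gavage cannot be told apart from these in that comparison.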

How the data were processed

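Total RNA of rat testis (Trizol and RNeasy, per the labels' protocols) was hybridised to 1-colour Rat230_2 arrays, 1 per rat, 3 rats in each of 10 groups. Groups and rat numbers came from the labels. The number of arrays limits the precision. The values deposited by the authors are 1 linear intensity per probe set. Per the submitters' processing notes the software was GCOS 1.0. How probes were summarised, and to which target arrays were scaled, is not given in the sources used here. RNA integrity numbers were 8.2 to 10 for the 29 rats with a value. Nothing in the labels says whether extraction or scanning was done in batches.

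The 57 control probe sets entered no test. Signals were used as log2(signal + 16), which understates folds of low signals. To be tested, a probe set had to reach the array's 40th percentile on at least 3 arrays, and 21190 did. They stood for 11274 genes, each represented by its brightest probe set on average where that had passed. A model with a mean for each group was fitted to all arrays together, so that groups share 1 estimate of the spread, in limma 3.58.1 (R 4.3.3), with 20 residual and 24.2 total degrees of freedom. The Benjamini-Hochberg adjustment was made for each contrast over the 21190 probe sets. P values measure the spread between these rats. The limma fit was tested on simulated data with known fold changes.

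Symbols came from the platform annotation, and all 62 probe sets kept their symbol when matched by Entrez number to a current gene table. The genes and lists were chosen with earlier results of these data known. The genes named were those called at any time, the 3 of smallest p at times with fewer than 3 called, and up to 6 called in each direction among the other cell cycle genes. For these and other genes given with a 12 h change, probe sets of the opposite direction at 12 h were given where a gene's change is described. Genes outside this rule (such as Ccne2, Cenpe, Ccnb2, Aurka, Pcna and Mki67) were singled out after their values were seen. Alternatives were other offsets, no filter, quantile normalization, robust moderation, the arrays of the time alone, the bacterial spike level or array median as a covariate, the gavage volume as a covariate, and leaving out single rats.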

Additional observations from a re-analysis of the deposited data

Results flagged for a closer look

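For 2 genes the change after MEHP at 12 h differed from the change at 6 h by a test of the difference itself. For Cdkn1b the difference was -0.98 ± 0.22 in log2 (adjusted p = 0.0213), with a change of -0.80 at 12 h and 0.18 at 6 h. It was also called under 8 other settings that keep all arrays, with an adjusted p of at most 0.0343, and not without the 7 arrays of lowest median signal (-1.03, adjusted p = 0.0865). For Cdkn1a it was 1.28 ± 0.24 (adjusted p = 0.00586), with 1.62 at 12 h and 0.34 at 6 h, and it was called without those 7 arrays too (1.39, adjusted p = 0.0334). All 3 treated rats lay on 1 side of their controls at 12 h for each gene.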

How the results depend on the processing

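Of 16 alternatives for each 12 h result, Cdkn1a was called in 16, Cdkn1b in 15 (not with the 6 arrays of 12 h alone, -0.80, adjusted p = 0.0659) and Cdk4 in 9. No result changed its direction past the threshold. The count of 2 cell cycle genes called at 12 h became 1 with quantile normalization, 0 with the 6 arrays of 12 h alone and 4 without the 7 arrays of lowest median, an alternative chosen after seeing the data, as was the gavage volume as a covariate. Leaving out single rats gave 1 to 7. It was 7 without MEHP rat 58 and 1 without corn oil rats 60, 61 or 62 or MEHP rat 57. Of the other cell cycle genes, 5 at 12 h became 1 with the 6 arrays alone 9 without the 7 arrays and 9 with the gavage volume, and 2 to 12 without single rats (12 without rat 58, 2 without 62, 3 without 60). At 2 h the count of 0 became 1 (Tyms) with the array median as a covariate, and 0 to 1 without single rats (1 without corn oil rat 7). That of the other genes at 2 h became 1 with quantile normalization, 1 with the spike level 2 with the array median and 2 with the gavage volume, and 0 to 2 without single rats. The count of 1 gene with a difference between 12 h and 6 h became 0 without the 7 arrays. The count of 1 with time dependence became 0 without the filter, with quantile normalization, with the spike level or without the 7 arrays. The count of 0 between corn oil groups became 1 (Aurka) with the gavage volume. The cause was not tested. For these alternatives the share of all genes called was not computed, so whether the changed counts are particular to cell cycle genes cannot be told. No paired analysis was possible because each rat has a number of its own, so no number recurs in another group. With 3 rats per group, the interval of the change lay within 1.5-fold of no change for most of the 42 genes. These were 30, 30, 36, 31 and 30 genes at 1, 2, 3, 6 and 12 h in turn. For the rest the interval reached past 1.5-fold.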
